A study of Mus musculus with 11 samples.

Results

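Type I interferon genes of the mouse form a cluster on chromosome 4. Here 9 of its gene names were examined for variants that distinguish the KPP-eGFP tumour cell line from the spleen of the host strain. The members were chosen by gene name (Ifna1, Ifna2, Ifna6, Ifna7, Ifna11, Ifna14, Ifnab, Gm13271 and Gm16686) and by position within the interferon cluster of chromosome 4 in the GRCm38 build. They held 81 of the 621 variants called by exome sequencing, from 88571259 to 88850606, and 386 of the 3265 calls. These genes were selected on the allele frequencies of the same libraries, since a lower frequency in tumours than in culture had already been seen in the cluster. The difference between culture and tumours is therefore given as a description and not as a test.

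KPP-eGFP is a clonal line derived from a genetically engineered mouse model of pancreatic ductal adenocarcinoma, and it expresses enhanced green fluorescent protein. At 3 weeks after implantation into skin by STAMP, a method that seeds an array of small tumours in pores made by a laser, 5 tumour libraries were sequenced, and the study describes such material as pooled biopsies, so a library may hold more than 1 small tumour. Each library is called a tumour here. They were classed by T cell infiltration, with 2 inflamed (1-3 and 2-1), 2 excluded (1-4 and 2-2) and 1 desert (2-3). The cultured line before implantation was sequenced in 3 libraries (1-B, 2 and 2-B), and the spleen, from wild-type mice of the strain used for the experiments, served as the normal genome. Whether any pair of libraries shared a culture or a mouse is not stated in the labels, and the spread between libraries may be technical. The study's methods describe adult male mice of several strains, wild-type and mutant, without naming the genotype of those that carried these tumours. Culture and tumours share the same clone and no drug is named for either, and a tumour biopsy also holds host cells. The variant allele frequency is the fraction of reads at a position that carry the alternate base, and the read depth behind it is unknown. The authors restricted tumour calls to variants found in the line, and a missing call is not a frequency of 0.

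Type I interferons are secreted cytokines that all bind the same receptor, made of Ifnar1 and Ifnar2, and signal through the kinases Jak1 and Tyk2 to turn on antiviral and antigen presentation genes. The interferon alpha genes have no introns and arose by repeated duplication, so their coding sequences are close copies of each other. In tumours, dendritic cells and other host cells are known sources of these cytokines, and the tumour cells can respond to them. Of the member genes, Ifna1, Ifna2, Ifna6, Ifna7, Ifna11 and Ifna14 encode interferon alpha proteins, Ifnab encodes a further member of the alpha family, and Gm13271 is a gene of the interferon zeta group. Gm16686 is a gene name of the variant table that was not found under that name in the annotation used here.

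How alike these copies are bears on every value below, since a read with a variant of a gene can match a neighbouring gene. Among 14 alpha family proteins read from the genome (182 to 190 residues for these and Gm13271), identity between any pair ranged from 78.3% to 91.5% with a median of 84.7%. The change called F108V, phenylalanine to valine at residue 108, is shown first because the table lists it in Ifna7, Ifna11 and Ifna1, and also in Ifna5, which is not a member. The 31 bases around it are written in the coding direction with the alternate base in capitals, and lie at chr4:88816534-88816564, chr4:88820265-88820295, chr4:88850393-88850423 and chr4:88835831-88835861 (GRCm38, plus strand).

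Ifna7 F108V: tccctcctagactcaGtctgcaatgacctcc
Ifna11 F108V: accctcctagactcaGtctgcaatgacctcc
Ifna1 F108V: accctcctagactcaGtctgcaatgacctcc
Ifna5 F108V: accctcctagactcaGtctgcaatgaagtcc

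The Ifna11 and Ifna1 stretches were identical over all 31 bases, that of Ifna7 differed from them at 1 base and that of Ifna5 at 2. In culture the mean frequency of F108V was 0.172 ± 0.0188 in Ifna7, 0.372 ± 0.0742 in Ifna11 and 0.868 ± 0.0526 in Ifna1 (SD, n = 3). No paralogue (0 of 13) of the reference genome has valine at this residue. Shared changes of this kind were frequent, with 19 residue changes found in more than 1 gene of the region, which took in 35 of the member variants. Of the 39 pairs of genes with the same change, 14 had identical stretches of 31 bases around the alternate base.

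The second set of sequences shows neighbouring variants that a single molecule can carry. Each pair of lines gives the GRCm38 stretch and then the same stretch with every alternate base of the group, in capitals, written in the coding direction except for Gm16686, which is written along the plus strand. The stretches are chr4:88850179-88850210 for Ifna1 (changes R36K, A37T and A37V), chr4:88683403-88683434 for Ifna2 (T121S and T121A, minus strand), chr4:88690827-88690858 for Ifnab (E126Q and S132F, minus strand), chr4:88820163-88820193 for Ifna11 (Q72K and S76A), chr4:88755383-88755413 for Gm13271 (S176Y and R179*) and chr4:88755420-88755450 for Gm16686 (I57F, A56G and G48E).

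Ifna1 reference: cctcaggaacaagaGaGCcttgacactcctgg
Ifna1 alternate: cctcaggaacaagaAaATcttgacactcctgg
Ifna2 reference: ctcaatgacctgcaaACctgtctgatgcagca
Ifna2 alternate: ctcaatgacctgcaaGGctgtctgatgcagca
Ifnab reference: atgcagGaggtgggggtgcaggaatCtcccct
Ifnab alternate: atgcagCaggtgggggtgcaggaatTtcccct
Ifna11 reference: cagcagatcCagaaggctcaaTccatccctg
Ifna11 alternate: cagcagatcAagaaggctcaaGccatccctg
Gm13271 reference: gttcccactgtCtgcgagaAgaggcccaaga
Gm13271 alternate: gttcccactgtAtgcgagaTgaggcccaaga
Gm16686 reference: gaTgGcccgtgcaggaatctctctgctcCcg
Gm16686 alternate: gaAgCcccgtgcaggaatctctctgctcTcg

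Written with all alternate bases, 5 of these 6 stretches occur elsewhere in GRCm38. The seventh such group, Ifna7 Q115L and Q126E, has an alternate stretch found at 0 other places and a reference stretch found at 3. The Ifna1 alternate stretch is that of Ifna9, the Ifnab alternate stretch is that of Ifna1, the Ifna11 alternate stretch occurs in Ifna1 and Ifna14, and the Ifna2 alternate stretch occurs in Ifna1, Ifna7, Ifna12 and Ifna14. The Gm16686 alternate stretch occurs at 14 other places, all in the cluster and among the repeated zeta genes, whereas its 3 variants taken singly gave stretches found nowhere else. The Gm13271 alternate stretch, which contains a stop codon, occurs at 0 other places, while its reference stretch occurs at 12.

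In culture, 38 of the 81 variants had a mean frequency above 0.75, here called near fixation, 22 lay between 0.25 and 0.75 and 21 below 0.25, each mean taken over the libraries that called the variant. The share near fixation was 46.9%, and it was 16.7% among the 540 variants outside these genes. A numbered entry of the polymorphism database was attached by the authors to 36 of the 38 variants near fixation, to 15 of the 22 in the middle class and to 4 of the 21 in the low class. Among the variants outside these genes, 8 of the 90 near fixation had such a number. The spleen fraction was 0 in every call for 75 of the 81 variants and at most 0.00305 for the others.

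**Figure D1:**
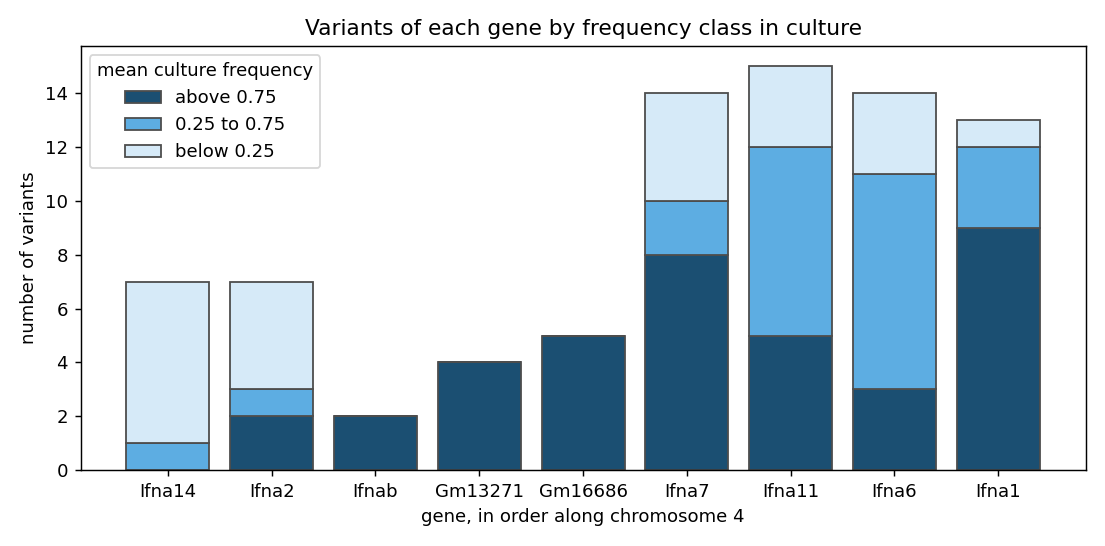
Number of variants in each gene (vertical axis), with genes in order along chromosome 4 and bars split by the mean variant allele frequency in culture. Gm13271, Gm16686 and Ifnab held only variants above 0.75, and Ifna14 held 0 of them.

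The genes differed in how these classes were mixed. Ifna11 had the most variants, 15, with 5 near fixation, 7 in the middle and 3 low. Ifna7 had 14 (8, 2 and 4), Ifna6 had 14 (3, 8 and 3), Ifna1 had 13 (9, 3 and 1), and Ifna2 had 7 (2, 1 and 4). Ifna14, at the end of the cluster with the lowest coordinates, had 7 variants of which 6 were low and 1 in the middle class. All 4 variants of Gm13271, all 5 of Gm16686 and both of Ifnab were near fixation. Missense changes made up 76 of the 81 variants, and 76 lay in a coding exon of the named gene in the GENCODE annotation, the 5 of Gm16686 being the others.

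The other changes were few. Gm13271 R179*, a stop gained at 88755402, had a frequency of 1.00 in all 3 culture libraries and was called in 0 tumours. The loss of the start codon of Gm16686 (M1?) at 88755590 was at 1.00 in all 3 culture libraries, 0.139 and 0.294 in the inflamed tumours, 0.294 in the excluded tumour 1-4 and 0.263 in the desert tumour, and was not called in the excluded tumour 2-2. Ifna6 L63*, a stop at 88827603, was called in culture 2-B alone, at 1.00. The frameshifts Ifna11 L63fs at 88820144, at 0.136, and Ifna1 F132fs at 88850479, at 0.154, were also called in culture 2-B alone. The 3 variants of Ifna6, Ifna11 and Ifna1 thus rest on 1 library each.

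**Figure D2:**
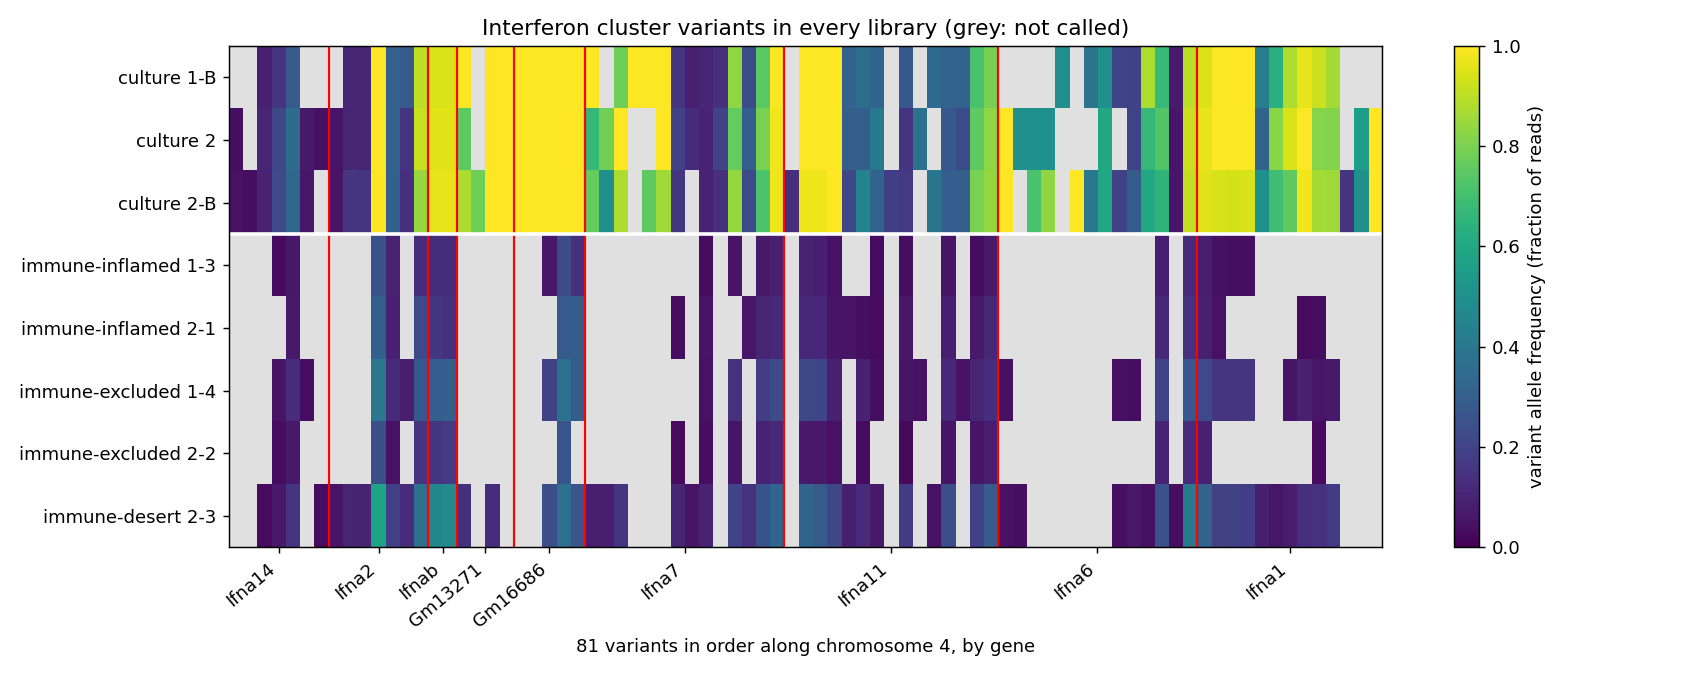
Variant allele frequency (colour, fraction of reads) of the 81 variants in the 3 culture libraries and the 5 tumours, in order along chromosome 4 with red lines between genes and grey where a variant was not called. Calls numbered 63 to 75 in a culture library and 25 to 57 in a tumour, and the desert tumour had the most tumour calls.

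For each gene, the variant with the highest mean frequency in culture was followed into the tumours. The change T102A of Ifna2, threonine to alanine at 88683476, was at 1.00 in all 3 culture libraries. It was at 0.252 and 0.303 in the inflamed tumours, 0.401 and 0.244 in the excluded tumours and 0.580 in the desert tumour. Ifna11 A92T, at 88820232, was also at 1.00 in all 3 culture libraries, but it was at 0.0504 and 0.0570 in the inflamed tumours, 0.0876 and 0.050 in the excluded tumours and 0.217 in the desert tumour. Both were at the same level in culture, and in each of the 5 tumours the Ifna2 variant was more frequent than the Ifna11 variant.

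Other genes lay between these. In Ifnab, S132F at 88690833 was at 0.946, 0.957 and 0.964 in culture, at 0.130 and 0.159 in the inflamed tumours, 0.297 and 0.155 in the excluded tumours and 0.457 in the desert tumour. Gm16686 S10G at 88755563 was at 1.00 in all 3 culture libraries, at 0.231 and 0.283 in the inflamed tumours, 0.375 and 0.261 in the excluded tumours and 0.368 in the desert tumour. No tumour of any phenotype reached the culture values for either variant. These frequencies include host reads, so lower values in tumours than in culture are not particular to these variants. In Gm13271, S176Y at 88755394 was at 1.00 in all 3 culture libraries and was called in the desert tumour alone, at 0.127.

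In Ifna1, A174T at 88850606 was at 1.00 in culture 2 and 2-B and was called in 0 tumours, and Ifna6 S18P at 88827467 was at 1.00 in the same 2 culture libraries, 0.0444 in the excluded tumour 1-4 and 0.0483 in the desert tumour. In Ifna7, D101N at 88816528 was at 1.00 but was called in culture 1-B alone. The most frequent variant of Ifna14 reached far lower values. P132L at 88571404 was at 0.286, 0.355 and 0.337 in culture, 0.0630 and 0.0673 in the inflamed tumours, 0.126 and 0.0668 in the excluded tumours and 0.149 in the desert tumour.

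Whether a variant was called in a tumour depends on its frequency there, on which these genes were selected, so the shares called are a description. In all 5 tumours 20 of the 81 variants were called, 24.7%, beside 238 of the 540 other variants, 44.1%. Of the variants near fixation, 36.8% were called in all 5 tumours, beside 82.2% of those outside these genes. The low class went the other way in each tumour. There 14.3% to 66.7% of the member variants were called beside 7.01% to 17.3% of the others. The member share was 3 of 21 in both inflamed tumours and 4 of 21 in the excluded tumour 2-2. Their 95% Wilson intervals began at 4.98% and 7.67%, below the others' shares of 10.3%, 7.01% and 11.7%. The low classes also differed in culture. Median frequencies in culture 1-B, 2 and 2-B were 0.137, 0.103 and 0.1395 for members and 0.0787, 0.073 and 0.07 for the others. The part this plays in the shares was not tested. In the desert tumour 70.4% of all member variants and 63.3% of all others were called. All 20 variants called in the 5 tumours were also called in the 3 culture libraries, so they form the set of 20 used for the comparisons of frequency. In no tumour were 21 variants called (25.9%, beside 31.1% of the others), with 6 of them in Ifna6 and 4 in Ifna7.

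The desert tumour held calls that no other tumour had. In that tumour alone 17 of the 81 variants were called, 4 in Ifna7, 3 each in Ifna2 and Ifna6, 2 each in Gm13271, Ifna1 and Ifna14 and 1 in Ifna11. That was 21.0% of the member variants and 3.70% of the others. Only 1 library of this phenotype was sequenced, and it also had the highest tumour frequencies across the exome, so the phenotype and the share of tumour cells in the biopsy cannot be told apart.

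Where a variant near fixation was called in a tumour, its frequency was divided by its culture mean. Over the member variants near fixation, the median of this ratio was 0.0902 and 0.126 in the inflamed tumours 1-3 and 2-1, 0.197 and 0.104 in the excluded tumours 1-4 and 2-2 and 0.248 in the desert tumour. Over the 90 other variants near fixation it was 0.246, 0.296, 0.469, 0.281 and 0.649 in the same order. The quotient of the members' median and that of the others was 0.367, 0.424, 0.420, 0.369 and 0.382. It thus spanned 0.367 to 0.424 (SD 0.0274, n = 5 tumours) although the 5 ratios of the other variants themselves ranged from 0.246 to 0.649. Of the 90 other variants, 80 lie on chromosome 6, so they stand mainly for that chromosome, and for the 5 on chromosome 4 outside these genes the medians ran from 0.251 to 0.616. A variant too rare to be called in a tumour is not in its median, and fewer of the members were called.

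**Figure D3:**
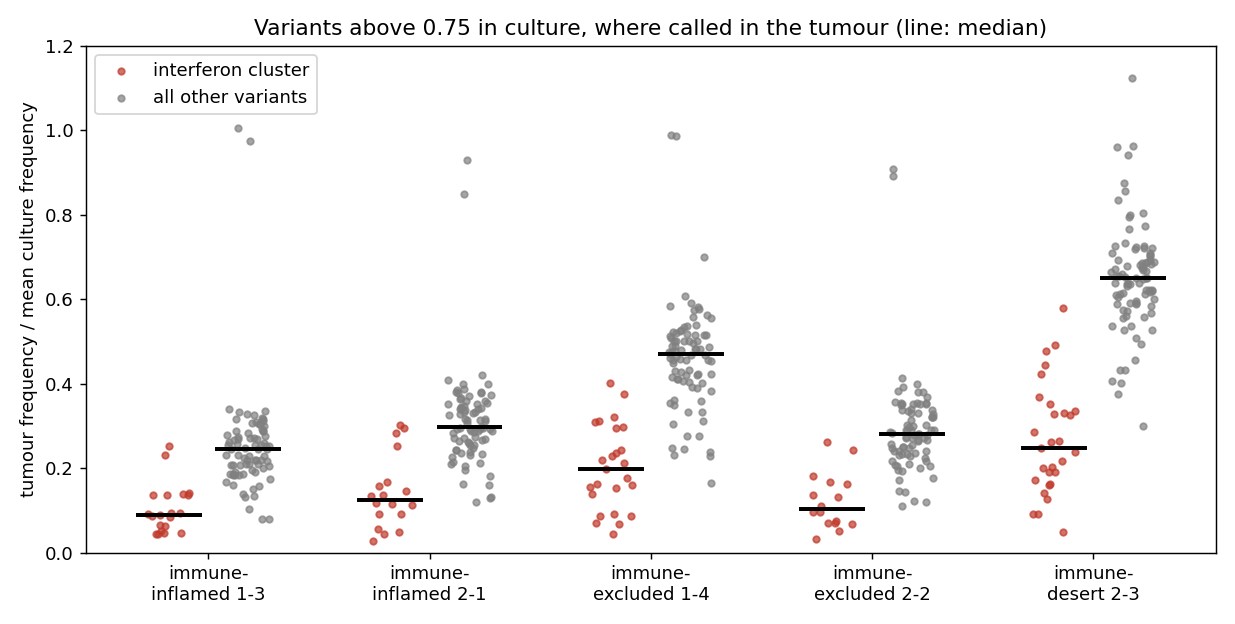
Ratio of the tumour frequency to the mean culture frequency (vertical axis) for every variant above 0.75 in culture that was called in the tumour, by tumour, with black lines at the medians. The medians of the interferon cluster variants, 0.0902 to 0.248, lie below those of all other variants, 0.246 to 0.649, in each of the 5 tumours.

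The ratio differed by gene. For the 2 Ifna2 variants near fixation the median was 0.197 to 0.501 over the tumours, for the 2 of Ifnab 0.136 to 0.485, for the 5 of Ifna11 0.0697 to 0.286 and for the 9 of Ifna1 0.0456 to 0.191. Every tumour called all of those of Ifna2, Ifnab and Ifna11, but only 2 to 8 of the 9 of Ifna1. Gm16686, whose 5 variants were at 1.00 in culture throughout, had medians of 0.139 to 0.294 over the 1 to 3 variants called in a tumour. Split by whether the alternate stretch of 31 bases occurs elsewhere in GRCm38, the medians over the tumours were 0.115 to 0.243 for the 13 variants near fixation with such a match and 0.0886 to 0.248 for the 25 without. This split takes each variant alone, and 6 of the 25, such as Gm16686 G48E and Ifna11 Q72K, have a match once their neighbours' alternate bases are included. The part of reads shared between copies in these values was not tested.

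Member variants below fixation behaved less uniformly. In the middle class the median ratio was 0.151 to 0.270 over the tumours, beside 0.265 to 0.622 for the other variants of that class. In the low class it was 0.164 to 0.647, beside 0.378 to 0.620, with 3 to 14 member variants called per tumour. Ifna7 Q126E, a change also listed in Ifna11 and Ifna1, was at 0.106, 0.10 and 0.0993 in culture and at 0.0996 in the desert tumour. It was at 0.0327 and 0.0531 in the inflamed and 0.0478 and 0.0354 in the excluded tumours.

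For the 20 variants called in all 8 libraries, each tumour was divided by the median ratio of its frequencies to culture, over all 258 variants of the exome called in all 8, to put tumours with different shares of host reads on the same scale. That step takes host reads to lower every variant of a tumour by the same factor, which was not tested. This factor was 0.246 and 0.295 in the inflamed tumours, 0.477 and 0.278 in the excluded tumours and 0.627 in the desert tumour. Scaled differences (tumours minus culture) had a median of -0.36 over the 20 and 0.0068 over all 258, and 19 of the 20 were below 0. At a limma adjusted p under 0.05, 13 of the 20 were lower in tumours and 0 higher, where over all variants tested 7.36% were lower, 0.775% higher and 8.14% differed either way. Because the genes were chosen with this contrast known, nothing is read from that count.

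**Figure D4:**
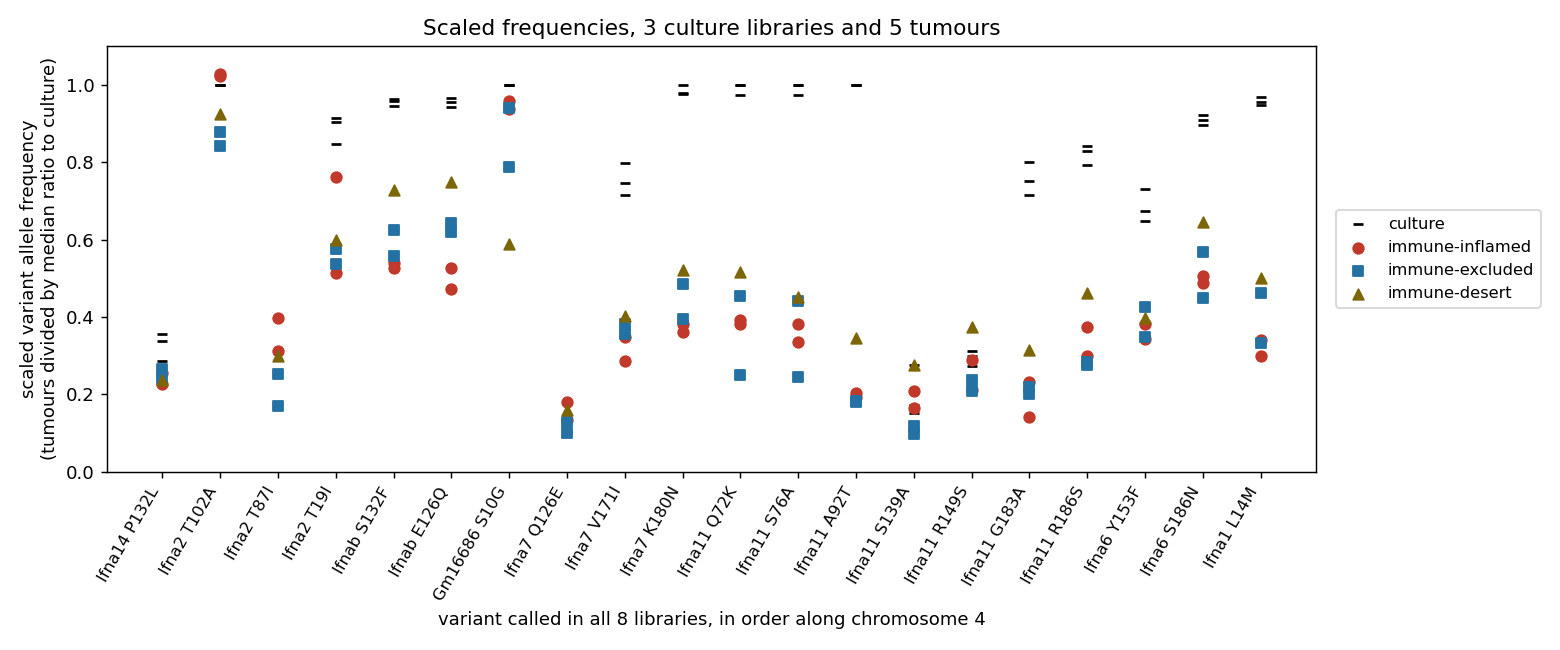
Scaled variant allele frequency (vertical axis, tumours divided by their median ratio to culture) of the 20 variants called in all 8 libraries, in order along chromosome 4, with dashes for the 3 culture libraries and symbols for the tumours by phenotype. Ifna2 T102A stayed between 0.841 and 1.03 in the tumours, and Ifna11 A92T between 0.18 and 0.346.

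The 10 largest of these differences lay in 5 genes. They were -0.78 (SE 0.0517) for Ifna11 A92T, -0.62 (SE 0.0553) for Ifna11 S76A, -0.59 (SE 0.0585) for Ifna11 Q72K, -0.57 (SE 0.0560) for Ifna1 L14M and -0.56 (SE 0.0526) for Ifna7 K180N. Ifna11 G183A, Ifna11 R186S, Ifna7 V171I, Ifna6 S186N and Ifnab S132F followed, with differences from -0.53 to -0.36. In each of these 10 all 5 tumours lay below all 3 culture libraries after scaling. The K180N change of Ifna7, for example, was at 1.00, 0.979 and 0.975 in culture and, scaled, at 0.362 and 0.382 in the inflamed tumours, 0.485 and 0.394 in the excluded tumours and 0.520 in the desert tumour.

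The scaled values of Ifna2 T102A and Gm16686 S10G stood apart from these. Ifna2 T102A was at 1.02 and 1.03 in the inflamed tumours, 0.841 and 0.877 in the excluded tumours and 0.924 in the desert tumour, a difference of -0.062 (SE 0.0653). Gm16686 S10G was at 0.938 and 0.957, 0.787 and 0.939, and 0.587 in the same order, a difference of -0.16 (SE 0.0792). For Ifna2 T102A the tumours spread around the culture value, and for Gm16686 S10G all 5 lay below it. The other variant of Ifna2 near fixation, T19I at 88683724, was at 0.888 ± 0.0362 (SD, n = 3) in culture and at 0.597 after scaling over the 5 tumours. Within Ifna11, R149S at 88820405 was at 0.313, 0.275 and 0.30 in culture and at 0.210 to 0.374 after scaling, an overlap that A92T of the same gene did not show.

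The phenotypes were compared to ask whether these variants separate tumours that T cells had entered from those they had not. Between inflamed and excluded tumours, 0 of the 20 variants passed at a limma adjusted p under 0.05, and 0% of all 258 did. The largest differences were 0.17 (SE 0.0536, adjusted p = 0.275) for Ifna2 T102A and 0.14 (SE 0.0432, adjusted p = 0.275) for Ifna2 T87I, both higher in the inflamed tumours, and -0.13 (SE 0.0483, adjusted p = 0.280) for Ifnab E126Q, by limma. At an unadjusted p under 0.05, 3 of the 20 and 38 of all 258 differed. The spread used in this fit also takes in the 3 culture libraries. Over all variants, leaving out 1 tumour gave 13 of 269 without inflamed 2-1, 6 of 260 without excluded 1-4, 5 of 280 without inflamed 1-3 and 3 of 270 without excluded 2-2, with 0 member variants among them.

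When the desert tumour was set against the average of the inflamed and excluded tumours, 0 of the 20 variants passed at a limma adjusted p under 0.05 and 0% of all 258, while at an unadjusted p under 0.05, 8 of the 20 and 18 of all 258 differed. The fit pools the spread of the culture, inflamed and excluded libraries and takes that of the single desert library to be the same. Culture libraries did not vary for some variants, such as Gm16686 S10G, so the unadjusted counts rest on this pooling. A difference of the phenotype and of that library cannot be told apart. Of the 8, 7 were higher in the desert tumour. The median difference was 0.12 over the 20 and -0.00085 over all 258. Gm16686 S10G was the exception in direction, lower by 0.32 on the scaled frequency (SE 0.0707, adjusted p = 0.264 by limma). Its call depended on the library set, since it was past the threshold without excluded 1-4 and in none of the other runs that left out 1 library.

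Haplotypes could be judged only between variants close enough to share reads. Within 75 bases of each other in the same gene there were 108 pairs, of which 67 were called together in at least 3 libraries and 11 differed by at most 0.05 in every library that called both. These pairs formed 7 groups with 16 variants. This limit was chosen after the values had been seen, and equal frequencies do not show that variants lie on the same molecule.

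**Figure D5:**
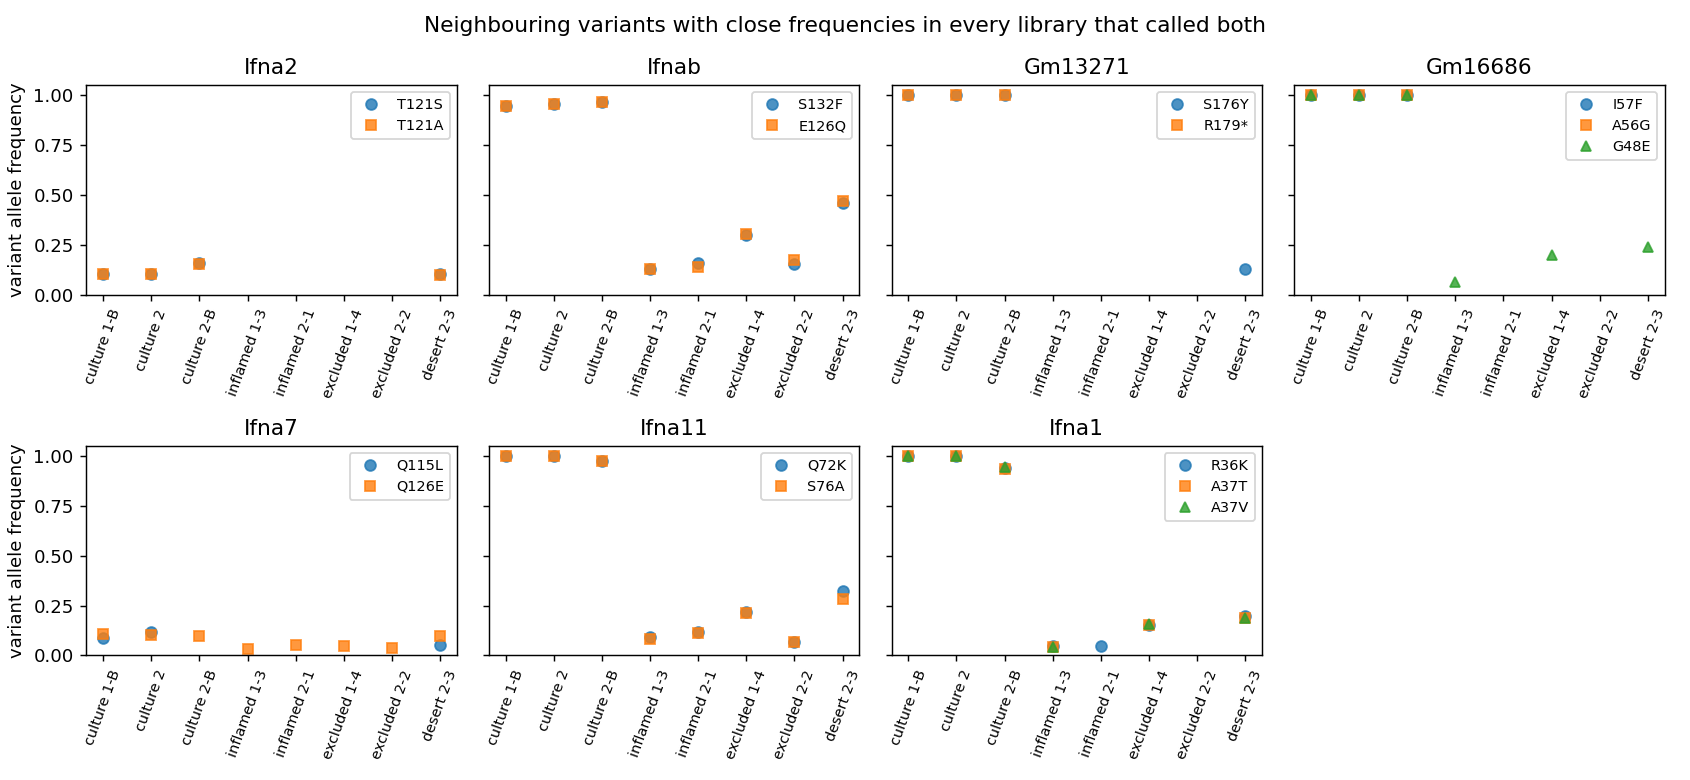
Variant allele frequency (vertical axis) in the 3 culture libraries and the 5 tumours for the 7 groups of neighbouring variants whose frequencies differed by at most 0.05 wherever both were called, with a symbol for each variant and no symbol where it was not called. The 2 Ifnab and the 2 Ifna11 variants were called and moved together in all 8 libraries.

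The closest groups were these. In Ifnab, S132F and E126Q lie 19 bases apart and differed by at most 0.0201 in all 8 libraries, between frequencies of 0.129 and 0.966. In Ifna11, Q72K and S76A lie 12 bases apart and differed by at most 0.0397 in all 8 libraries. In Ifna1, R36K, A37T and A37V lie within 3 bases and differed by at most 0.00921 in the 6 libraries that called all of them, the 3 of culture, inflamed 1-3, excluded 1-4 and desert. In Ifna2, T121S and T121A are neighbouring bases at 88683418 and 88683419 and differed by at most 0.00503 in the 4 libraries that called them, the 3 of culture, at 0.102 to 0.160, and the desert tumour.

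The remaining groups rest on fewer values. Gm16686 I57F, A56G and G48E were all at 1.00 in the 3 culture libraries, but only G48E was called in tumours, at 0.0649 in the inflamed tumour 1-3, 0.197 in the excluded tumour 1-4 and 0.239 in the desert tumour. Gm13271 S176Y and R179* were likewise at 1.00 in culture, and S176Y alone was called in the desert tumour. For Ifna7 Q115L and Q126E, at means of 0.103 and 0.102 in culture, 3 libraries called both and 5 called only Q126E. Variants that sit at 1.00 in culture have equal frequencies whether or not they lie on the same molecule, so for these groups the culture values carry no information on linkage.

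Several codons held more than 1 variant. Where these lie at different bases and on the same molecule, the residue listed for each is not that of the joint codon. In Ifna1 the bases of A37T and A37V together encode A37I, and the same holds in Ifna6, where the pair was at 0.50 and 0.50 in culture 2 and at 0.714 and 0.833 in culture 2-B. Isoleucine at this residue is found in 1 of the 13 other alpha family proteins of the reference, Ifna9, whereas threonine and valine are found in 0. In Ifna2 the bases of T121S and T121A together encode T121G, and glycine is found in 6 of 13. Ifna7 residue 145 had 2 alternates at the same base, 88816661, of which T145I was at 0.833, 0.764 and 0.843 in culture and T145K at 0.137, 0.200 and 0.139, which summed to 0.971, 0.964 and 0.983. At the matching residue of Ifna11, 88820392, I145T was called in culture 1-B and 2-B (0.349 and 0.388) and I145K in culture 2 (0.375), and no library called both.

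Along the cluster, neighbouring member variants of the same frequency class formed 31 runs, with the variants of Ifna5, Ifna9 and Ifna12 left out. The longest held 13 variants near fixation, from Ifna2 T19I at 88683724 through Ifnab, Gm13271 and Gm16686 to Ifna7 V12A at 88816262. The next longest of that class held 5, from Ifna6 S186N at 88827972 to Ifna1 A37V at 88850196. It is unbroken only among the members. The 7 variants of Ifna5, with culture means of 0.0446 to 0.270, lie between its Ifna6 and Ifna1 variants. Between the run of 13 and that of 5, within Ifna7, Ifna11 and Ifna6, classes alternated over short distances. In Ifna11, for example, A92T at 1.00 and D95A at 0.277 ± 0.0538 (SD, n = 3) in culture are neighbouring variants at 88820232 and 88820242.

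In 56 of the 70 single-base variants of the 7 alpha family members, the alternate residue is present at the same place in at least 1 other alpha family protein of the reference, and in 14 it is in none. The 31 bases around the variant, with the alternate base, occurred elsewhere in GRCm38 for 30 of the 79 single-base member variants, and with 75 bases for 4. The examples that matched most places were Gm13271 V144G, with 14, and Ifna14 I171V, with 10. Of the 10 largest scaled differences, 3 had such a match (Ifna11 S76A, Ifna7 V171I and Ifnab S132F), and Ifna11 Q72K had one only together with S76A. The remaining 6, Ifna11 A92T, Ifna7 K180N and Ifna1 L14M among them, had 0 with the alternate base. With the reference base, the 31 bases occurred elsewhere for 38 member variants. Those of Ifna1 L14M also occur in Ifna5, as do the 75 bases, and those of Ifna11 G183A in Ifna1 and Ifna16. The reference stretches of Ifna11 A92T, Ifna11 R186S, Ifna7 K180N and Ifna6 S186N had 0 matches. An exact search misses a copy that differs at any other base of the stretch. The alternate residue was found in 13 other alpha family proteins for Ifna11 A92T, 10 for R186S and 9 for G183A. It was found in 8 each for Ifna7 K180N and Ifna1 L14M and in 0 for Ifna6 S186N.

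The rest of the pathway was checked over 38 further genes. They were other type I interferon genes, the receptor chains, signalling proteins, interferon regulatory factors and the main induced genes. Variants were called in 3 of them, Ifna5 (7 variants), Ifna9 (10) and Ifna12 (7), all alpha genes of the same cluster. They were called in 0 of the other 35, Ifnb1, Ifnar1 and Ifnar2 among them. Over the whole exome only 304 genes held a called variant, so nothing is read from this 0. The 24 variants of Ifna5, Ifna9 and Ifna12 had mean frequencies of 0.0411 to 0.344 in culture, so 0 were near fixation, and 8 were called in all 5 tumours. Their median ratio of tumour to culture was 0.208 and 0.194 in the inflamed tumours, 0.402 and 0.233 in the excluded tumours and 0.532 in the desert tumour.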

How the data were processed

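Per the methods and labels, the authors aligned exome reads to GRCm38 using BWA, realigned reads locally and flagged duplicates by the GATK guidelines, and compared each library with spleen using Strelka (versions: not given in the sources used here). Each deposited value is a fraction, the share of reads with the alternate base, next to the spleen fraction and the tier of the call. The authors kept only variants of the line in tumours. The depth columns hold no values, so errors are spreads between libraries.

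The members, gene lists and tests were chosen with earlier results of these data known. All 9 member genes were described, each with its variant of highest mean culture frequency, all stop, frameshift and start-loss variants, codons with several variants and the 10 largest differences. Scaled fractions were fitted in limma with a variance trend and adjustment by Benjamini-Hochberg over 258 variants, after the fit had been tested on simulated data. Stretches were searched on both strands of GRCm38, and genes and exons were taken from GENCODE. Proteins were translated from the genome and aligned with MAFFT. The work used Python 3.11.15, numpy 2.4.6, pandas 2.3.3, scipy 1.17.1, numba 0.67.0, matplotlib 3.10.9, R 4.3.3, limma 3.58.1 and MAFFT 7.526. Alternatives were other scalings, a log2 scale (0.01 added), tier 1 calls, single-base variants, weights and missing calls allowed. Other limits and stretch lengths, leaving out each library and a replicate block were also tried. The block is the leading number of the tumour names, whose meaning the labels do not give.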

Additional observations from a re-analysis of the deposited data

How the results depend on the processing

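Of the 20 variants tested, 13 were lower in tumours than in culture, and the count was 13 to 15 when each library was left out in turn and 13 with either other scaling, on the log2 scale, with single-base variants or with weights. Over all variants tested, 6.98% to 14.7% passed in those runs. The count was 20 with no scaling, where 98.8% of all variants passed, so it says nothing particular about the members. It was 8 (of 11) with tier 1 calls, beside 9.85% of all variants, and 23 (of 32) with missing calls allowed, beside 10.7%. All 10 named differences kept their direction and their side of the threshold wherever they could be fitted. The genes, and then these 10, were picked on this same contrast in these libraries. That they held is therefore a description of the processing and no further evidence for the difference. Between inflamed and excluded tumours the count of member variants stayed at 0 in all alternatives that kept 2 tumours in each group. These include the replicate block and the crossed pairing, and over all variants 0% to 0.775% passed in them. The crossed pairing was added after a weak correlation (-0.18) was seen between same-numbered tumours in their deviations from group means. With 2 tumours in a group, both numbers must give the same value and the crossed pairing the opposite sign. It therefore says little about how tumours were paired. The desert comparison rests on 1 library, so no counts are given for its alternatives. Without scaling it also carries the higher frequencies of that library across the exome. Without the desert tumour that comparison could not be fitted. Alternate stretches found elsewhere fell from 30 to 10 with 51 bases and 4 with 75. With variants of all 3 culture libraries only, 13 were in the middle and 11 in the low class, and 32 near fixation. The quotient of members to others near fixation, 0.367 to 0.424 over the tumours, stayed below 1 in every alternative. It carries the same selection of genes, so a value below 1 was to be found in any case. With a limit of 0.9 it was 0.387 in inflamed 2-1, 0.462 in excluded 1-4, 0.441 in excluded 2-2 and 0.424 in desert. With tier 1 calls it was 0.331 and 0.378 in the inflamed, 0.346 and 0.308 in the excluded and 0.334 in the desert tumour. Without variants whose stretch, each taken alone, occurs elsewhere it was 0.374 in excluded 1-4 and 0.394 in inflamed 2-1. It was also lower in inflamed 1-3 and excluded 2-2. There the members' median ratio was 0.0886 and 0.0962, beside 0.0902 and 0.104 over all members near fixation. In the desert tumour that median was 0.248 both ways. Leaving out each culture library gave 0.391 (without culture 2) to 0.434 in excluded 1-4, 0.393 (without culture 2) to 0.451 in inflamed 2-1 and 0.351 (without culture 2-B) to 0.387 in desert. The cause of these changes was not tested. Unknown depth limits every single frequency.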
